A study of Mus musculus with 20 samples.

Results

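The genes described here encode the enzymes of central carbon metabolism, 42 genes in all, followed through 4 RNA sequencing experiments on mouse intestinal lymphocytes. They were chosen by name, with earlier results of these data known, out of 25933 genes found in any of the tables. They comprise 19 genes of glycolysis, 6 of the pentose phosphate pathway and 17 of the tricarboxylic acid (TCA) cycle. Every member was present in all 20 libraries. The 3 pathways are described apart, and values are compared only within an experiment, because 2 experiments were deposited as FPKM (fragments per kilobase of transcript, scaled to library size) and 2 as reads scaled by a size factor.

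Glycolysis splits glucose into pyruvate in the cytosol and yields ATP quickly, with lactate as an end product when pyruvate is reduced. The pentose phosphate pathway branches off after the first glycolytic step and supplies NADPH for reductive reactions and ribose for nucleotides. The TCA cycle oxidises the acetyl groups made from pyruvate inside mitochondria and feeds the respiratory chain. T cells are known to raise glycolysis on activation and to rely more on mitochondrial oxidation in quiescent or memory states, and the transcription factors BCL6, BLIMP1 (the product of Prdm1) and TCF1 (the product of Tcf7) guide T cell differentiation.

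All cells were CD8αα+ αβ intraepithelial lymphocytes (IELs), T cells that live between the epithelial cells of the gut and carry CD8 as a homodimer of the α chain, taken from mice at steady state. In the sorting experiment, Bcl6-RFP/RFP reporter mice, in which a red fluorescent protein marks Bcl6 expression, gave 3 libraries of RFP+CD160+ cells and 3 of RFP-CD160- cells. Total cells of the same kind came from Bcl6fl/fl Cd8cre, Prdm1fl/fl Cd8cre and Tcf7fl/fl Cd8cre mice, each with 2 knockout libraries and 2 from floxed littermates (Bcl6fl/fl, Prdm1fl/fl and Tcf7fl/fl). The 2 remaining libraries from the reporter mice are titled LI while their tissue is given as small intestine; they were put in no group and are shown beside the others. Every knockout carried the Cd8cre transgene and no littermate did, so an effect of the Cre itself cannot be told apart from that of the deletion. The ages and sexes were not given in the labels, and the labels do not say that libraries of a group came from separate animals, so p-values measure only the spread between these libraries, which may be technical.

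The libraries held 14500000 to 17400000 reads in the sorted cells. They held 22100000 to 23000000 reads in the Bcl6 experiment, 30100000 to 38400000 reads in the Prdm1 experiment and 41000000 to 48200000 reads in the Tcf7 experiment, as recovered from the value of 1 read and rounded. Genes that define the labelled cells were high in the sorted libraries, with Cd3e at 157 to 175 FPKM in RFP+ and 224 to 246 FPKM in RFP-, and Cd8a at 542 to 612 and 871 to 946 FPKM. Cd4 was at 0 to 0.0881 FPKM and Cd8b1 at 0.720 to 1.27 FPKM over all 6. Bcl6 was at 13.7 to 18.0 FPKM in RFP+ libraries against 3.30 to 3.59 FPKM in RFP-. Prdm1 was at 640 and 362 scaled reads in its knockout against 6092 and 5117 in littermates, and Tcf7 at 7757 and 7993 against 15430 and 15610. Bcl6 itself was under 1 FPKM in all 4 libraries of its experiment (0.550 and 0.638 in the knockout, 0.772 and 0.735 in littermates), so its level there is a weak check of the labels. These tables sum all exons of a gene, deleted or not. Replicate 2 of the Bcl6 knockout stood apart for the members: 29 of 41 tested members (70.7%) had their lowest value of the 4 libraries there, against 35.9% of all genes tested. In bulk libraries, fewer cells of a type and less RNA per cell cannot be told apart.

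The lactate dehydrogenase genes Ldha and Ldhb moved in opposite directions between the sorted cells. Pfkfb3 and Idh2 each passed the test in 2 experiments. The promoters of these 4 members, picked for their results, are shown first. They are RefSeq windows on GRCm38.p6, 250 bases before to 50 after the first listed start: Ldha at chr7:46845554-46845853 on the plus strand, and on the minus strand Ldhb at chr6:142507908-142508207, Pfkfb3 at chr2:11553880-11554179 and Idh2 at chr7:80115301-80115600. Each is printed 5′ to 3′, and capitals mark matches on either strand to 5 short motifs: CACGTG (the E-box bound by MYC), ACGTG and GCGTG (the core of hypoxia-inducible factor sites), TCAAAG (a TCF1 core) and GAAAGTG (a BLIMP1 core).
Ldha promoter: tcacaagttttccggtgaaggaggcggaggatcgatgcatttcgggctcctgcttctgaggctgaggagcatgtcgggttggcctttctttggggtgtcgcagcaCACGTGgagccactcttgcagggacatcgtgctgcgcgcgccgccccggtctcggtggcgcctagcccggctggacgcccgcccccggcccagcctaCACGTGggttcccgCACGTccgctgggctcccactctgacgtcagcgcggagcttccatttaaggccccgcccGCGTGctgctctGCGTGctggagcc
Ldhb promoter: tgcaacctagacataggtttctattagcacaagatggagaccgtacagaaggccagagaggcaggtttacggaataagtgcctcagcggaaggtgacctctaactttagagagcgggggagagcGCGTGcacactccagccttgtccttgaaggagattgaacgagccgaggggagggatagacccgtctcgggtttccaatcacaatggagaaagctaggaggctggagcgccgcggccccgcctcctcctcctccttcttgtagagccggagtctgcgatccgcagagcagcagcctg
Pfkfb3 promoter: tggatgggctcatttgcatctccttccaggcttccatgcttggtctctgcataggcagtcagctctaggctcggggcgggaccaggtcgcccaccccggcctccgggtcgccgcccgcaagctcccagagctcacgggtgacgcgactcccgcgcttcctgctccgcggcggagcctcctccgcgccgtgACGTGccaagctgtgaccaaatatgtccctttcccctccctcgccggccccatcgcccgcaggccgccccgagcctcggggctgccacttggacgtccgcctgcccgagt
Idh2 promoter: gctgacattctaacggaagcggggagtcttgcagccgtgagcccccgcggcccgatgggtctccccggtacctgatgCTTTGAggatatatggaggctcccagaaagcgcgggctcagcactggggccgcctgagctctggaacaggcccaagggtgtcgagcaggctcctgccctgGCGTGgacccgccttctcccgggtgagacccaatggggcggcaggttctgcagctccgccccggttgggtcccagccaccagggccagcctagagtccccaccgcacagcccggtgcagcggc
The Ldha window holds 2 E-boxes, and ACGTG 5 times when both strands are counted, because each E-box contains it on both. The Ldhb window has neither of these and 1 GCGTG, Pfkfb3 has 1 ACGTG, and Idh2 has 1 GCGTG and 1 TCAAAG. Promoter windows matched 41 of the 42 members. GCGTG was present in 61% of the members' windows and in 32.5% of all 27025 windows, ACGTG in 31.7% against 19.7%, CACGTG in 4.88% against 7.24%, TCAAAG in 19.5% against 16.2%, and GAAAGTG in 4.88% against 4.77%. Such matches describe the letters only.

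The sorted cells gave the most called members. A gene was called where limma's adjusted p was at most 0.05, on log2(FPKM + 1), a scale on which changes of low genes are understated. Of 41 members tested, 15 were called between RFP+CD160+ and RFP-CD160- cells (36.6%), 5 higher and 10 lower in RFP+. Over all 9717 genes tested, 38% were called, 16.4% higher and 21.6% lower, so the members as a set were called about as often as other genes. Groups did not overlap for 21 members (51.2%), against 51.9% of all genes. The plot of members by library shows the 3 pathways side by side.

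**Figure D1:**
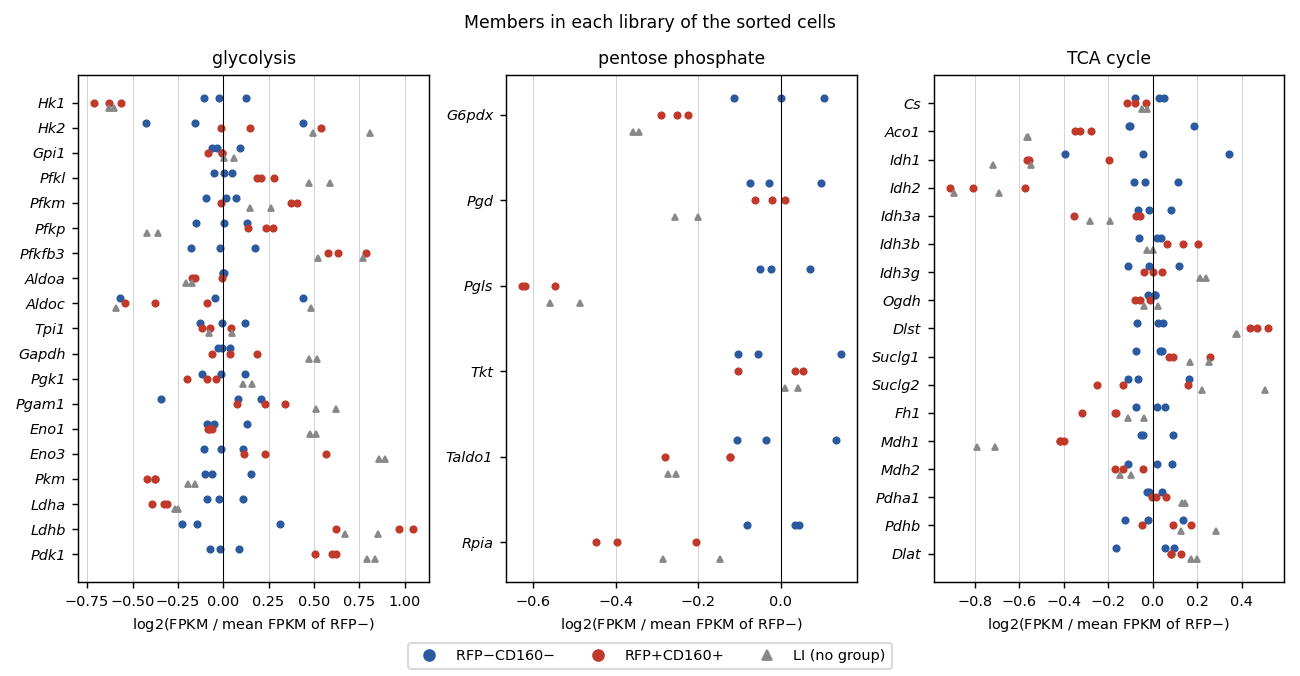
Members of each pathway in the sorted cells. Each point is 1 library, on the x axis as log2 of its FPKM over the mean FPKM of the 3 RFP- libraries; blue circles are RFP-, red circles RFP+ and grey triangles the 2 libraries titled LI. Hk1, Pgls, Idh2 and Mdh1 have all RFP+ points to the left of the RFP- points, and Ldhb, Pdk1, Pfkfb3 and Dlst to the right.

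In glycolysis, RFP+ cells had 4 genes higher and 3 lower of 18 tested, with a median log2 fold change of 0.11 against -0.03 for all genes tested. On the FPKM scale, the called genes beside Pdk1 sat at the entry, the committed step and the exit of the pathway. At its entry, Hk1, the housekeeping hexokinase that phosphorylates glucose, was at 16.6, 15.6 and 17.3 FPKM in RFP+ libraries against 27.9, 25.2 and 23.7 FPKM in RFP-. The groups did not overlap, and Hk1 fell by 0.60 on the log2 scale (SE 0.07, limma adjusted p = 0.000367). Its inducible counterpart Hk2 was low, at 1.72, 1.54 and 2.26 FPKM in RFP+ libraries against 2.11, 1.40 and 1.16 FPKM in RFP-, which overlapped (log2 fold change 0.16, SE 0.15, adjusted p = 0.437). Hk2 made up 8.99% to 11.5% of the summed hexokinase FPKM (Hk1 and Hk2) in RFP+ and 4.65% to 7.04% in RFP- libraries, without overlap.

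At the committed step, Pfkfb3, which makes fructose 2,6-bisphosphate, the activator of phosphofructokinase, was at 5.24, 5.03 and 5.83 FPKM in RFP+ libraries against 3.81, 2.98 and 3.34 FPKM in RFP-. All RFP+ values lay above all RFP- values, and Pfkfb3 rose by 0.54 (SE 0.09, adjusted p = 0.00235). Pfkl, the liver-type phosphofructokinase subunit, was at 6.89, 7.00 and 7.36 FPKM against 5.86, 6.26 and 6.08 FPKM (log2 fold change 0.19, SE 0.06, adjusted p = 0.0343). Leaving out any 1 of the 6 libraries ended the call on Pfkl, with adjusted p from 0.0620 to 0.0984. Pfkp, the platelet-type subunit and 74.5% to 78.6% of the family's FPKM, was at 42.4 ± 2.05 against 36.5 ± 3.53 FPKM (SD, n = 3) with an adjusted p of 0.0563. The family's makeup did not separate the sorted groups, since Pfkl was 12.2% to 13.4% of it in RFP+ and 11.5% to 13.7% in RFP- libraries.

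The middle of the pathway held no called gene on the FPKM scale. Aldoa, Tpi1, Gapdh, Pgk1, Pgam1, Eno1 and Eno3, with Gpi1 before them, had log2 fold changes from -0.11 (Aldoa) to 0.27 (Eno3). The called Pfkl had 0.19. With totals rescaled to the same sum, the glycolysis calls became 8 higher and 3 lower, so the called set depends on the scale. Aldoc, the brain-type aldolase, was under 1 FPKM in all sorted libraries and was not tested.

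At the exit, the pyruvate kinase gene Pkm was at 55.3, 57.0 and 57.0 FPKM in RFP+ libraries against 82.3, 70.9 and 69.0 FPKM in RFP-, and fell by 0.38 (SE 0.07, adjusted p = 0.00382). Ldha, the muscle-type subunit of lactate dehydrogenase and the most abundant glycolytic member in the sorted cells, was at 76.3, 72.2 and 75.5 FPKM against 102, 93.0 and 89.0 FPKM. Its groups did not overlap, and Ldha fell by 0.34 (SE 0.06, adjusted p = 0.00372). The heart-type subunit Ldhb went the other way.

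Ldhb was at 7.53, 5.92 and 7.95 FPKM in RFP+ libraries against 4.78, 3.29 and 3.48 FPKM in RFP-. It rose by 0.75 (SE 0.14, adjusted p = 0.00374). Ldhb accounted for 8.98%, 7.57% and 9.53% of the summed Ldha and Ldhb FPKM in RFP+ libraries and 4.47%, 3.41% and 3.77% in RFP- libraries. Ldha stayed the major subunit gene in each library, above 90% of the sum. Of the 1615 different 50-base words in Ldhb transcripts 339, and 331 of 3575 in Ldha transcripts, also occur in transcripts of other genes, so their counts are less certain than those of Hk2, Pdk1 or Idh2, which share none.

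Pdk1, the kinase that switches off pyruvate dehydrogenase and is counted here with glycolysis, was at 8.12, 8.25 and 7.61 FPKM in RFP+ libraries against 5.10, 5.30 and 5.68 FPKM in RFP-. The groups were well apart, and Pdk1 rose by 0.50 (SE 0.06, adjusted p = 0.000629). Its target showed no call in any subunit measured: the log2 fold changes were 0.02 for Pdha1, 0.07 for Pdhb and 0.09 for Dlat.

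**Figure D2:**
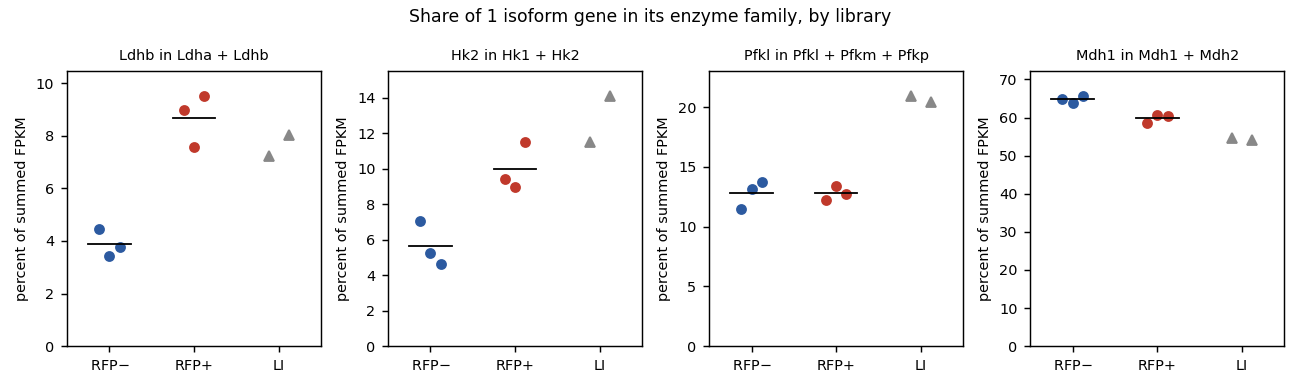
Share of 1 isoform gene in the summed FPKM of its enzyme family, in percent on the y axis, for each sorted library and the 2 libraries titled LI (grey triangles); horizontal lines are means of 3 libraries. Ldhb and Hk2 take larger shares in RFP+ than in RFP- libraries and Mdh1 a smaller one, while the Pfkl shares overlap.

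In the pentose phosphate pathway, no gene was higher and 3 of 6 were lower in RFP+ cells, with a median log2 fold change of -0.20. G6pdx encodes glucose-6-phosphate dehydrogenase, which makes the first NADPH, and was at 9.15, 8.73 and 8.97 FPKM in RFP+ libraries against 11.5, 9.88 and 10.7 FPKM in RFP-. It fell by 0.23 (SE 0.07, adjusted p = 0.0258). The call on G6pdx was kept in 1 of the 6 fits that left out a library, the one without RFP- replicate 2 (largest adjusted p of the others 0.0763), and it was lost with totals rescaled to the same sum (adjusted p = 0.299). Pgls, the lactonase of the next step, was at 12.0, 12.6 and 11.9 FPKM against 19.3, 18.1 and 17.7 FPKM.

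Pgls fell by 0.56 (SE 0.05) with the smallest adjusted p of any member here, 0.000148. Pgd, which makes the second NADPH, differed by -0.02 on the log2 scale and was not called. Rpia, the ribose-5-phosphate isomerase, was at 6.95, 7.95 and 6.71 FPKM against 9.38, 9.44 and 8.65 FPKM, and fell by 0.31 (SE 0.07, adjusted p = 0.0123). The rearranging enzymes Tkt and Taldo1, the most abundant of the pathway, had log2 fold changes of 0.00 and -0.17 and were not called.

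In the TCA cycle, 1 gene was higher and 4 were lower among 17 tested, with a median of -0.06. Idh2, the mitochondrial NADP-dependent isocitrate dehydrogenase, was at 6.89, 8.11 and 6.40 FPKM in RFP+ libraries against 13.1, 11.4 and 11.8 FPKM in RFP-. The groups did not overlap, and Idh2 fell by 0.69 (SE 0.09, adjusted p = 0.000642). Its cytosolic counterpart Idh1 was at 1.92 to 2.48 FPKM against 2.16 to 3.62 FPKM, which overlapped, and the NAD-dependent enzyme's subunits Idh3a, Idh3b and Idh3g were not called.

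Mdh1, the cytosolic malate dehydrogenase of the malate-aspartate shuttle, was at 50.2, 50.2 and 50.8 FPKM in RFP+ libraries against 71.6, 65.0 and 64.7 FPKM in RFP-. It fell by 0.40 (SE 0.05, adjusted p = 0.000719). The mitochondrial Mdh2 differed by -0.11 and was not called, and the share of Mdh1 in their sum was 58.7% to 60.8% against 63.9% to 65.8%. Aco1, the cytosolic aconitase that doubles as an iron-sensing RNA-binding protein, was at 9.68, 10.0 and 9.54 FPKM against 13.8, 11.3 and 11.3 FPKM, and fell by 0.28 (SE 0.08, adjusted p = 0.0257). The call on Aco1 was lost without each of the 3 RFP+ libraries in turn (adjusted p up to 0.0764) and with totals rescaled (0.147).

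Fh1, the fumarase, was at 10.2, 10.2 and 9.20 FPKM against 11.6, 10.9 and 11.9 FPKM (log2 fold change -0.20, SE 0.06, adjusted p = 0.0413). The call on Fh1 was lost under each of the 4 other scalings. Dlst, the succinyltransferase of the 2-oxoglutarate dehydrogenase complex, was the sole TCA gene called higher, at 19.0, 18.3 and 17.9 FPKM in RFP+ libraries against 13.4, 13.6 and 12.6 FPKM in RFP-. It rose by 0.45 (SE 0.05, adjusted p = 0.000427), while Ogdh, the first subunit of the same complex, differed by -0.05. Cs, the citrate synthase that opens the cycle, was at 23.7, 22.3 and 22.9 FPKM against 25.1, 24.7 and 22.9 FPKM, which overlapped (log2 fold change -0.07, adjusted p = 0.326).

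The direction of the pathways as a whole depended on the scale. Summed FPKM of glycolysis was 492 to 500 in RFP+ and 510 to 569 in RFP- libraries, that of the pentose phosphate pathway 123 to 130 against 136 to 157, and that of the TCA cycle 343 to 352 against 357 to 383. As a share of all FPKM in a library, glycolysis genes instead took slightly more in RFP+, 0.2058% to 0.2077% against 0.1946% to 0.2056%. TCA genes also took more, 0.144% to 0.147% against 0.136% to 0.139%, and the pentose phosphate shares overlapped, at 0.0513% to 0.0544% against 0.0521% to 0.0566%. All FPKM summed to 238848 to 241207 in RFP+ and 262041 to 276608 in RFP- libraries, and the granzyme genes Gzma and Gzmb alone held 0.0793% to 0.180% and 7.32% to 8.27% of it.

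Every library was also rescaled to the same sum, a scale chosen after seeing the data. On that scale 20 members were called (48.8%, against 46% of all genes), 14 higher and 6 lower, in place of 5 higher and 10 lower. By pathway, the calls became 8 higher and 3 lower in glycolysis, 1 lower in the pentose phosphate pathway, where Rpia was also lost (adjusted p = 0.102), and 6 higher and 2 lower in the TCA cycle. Over all genes, that scale called 3300 higher and 1171 lower, in place of 1591 and 2098, and moved the median log2 fold change from -0.03 to 0.12. The planned scalings changed the members' calls less. Totals rescaled without the granzymes gave 6 higher and 9 lower, and quantile normalization and centring on well expressed genes each gave 7 and 9. These were 36.6% to 39% of members, against 37.8% to 38.7% of all genes. In all, 11 members were called in the same direction on the FPKM scale and under all 4 other scalings: Pfkl, Pfkfb3, Ldhb, Pdk1 and Dlst higher, and Hk1, Pkm, Ldha, Pgls, Idh2 and Mdh1 lower. All of these but Pfkl were also called with each of the 6 libraries left out in turn. Neither count was made over all genes, so neither sets the members apart from other genes. The largest adjusted p that Ldha reached over the 4 other scalings was 0.0206.

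Other genes of the same pathways, listed by function, were called in both directions. Of 17 other glycolysis genes tested, 4 were higher and 4 lower in RFP+. The transporters split: the lactate transporter gene Slc16a1 (MCT1) was at 4.68, 3.93 and 5.99 FPKM in RFP+ against 2.04, 1.93 and 1.70 FPKM, a rise of 1.01 (SE 0.13, adjusted p = 0.000557). Slc16a3 (MCT4), known for lactate export, was at 2.20, 2.50 and 2.40 FPKM against 4.87, 4.37 and 4.38 FPKM and fell by 0.72 (SE 0.08, adjusted p = 0.000221). The glucose transporter gene Slc2a1 (GLUT1) rose by 0.46 (SE 0.07, adjusted p = 0.00184), and Slc2a3 (GLUT3) fell by 0.41 (SE 0.05, adjusted p = 0.000747).

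Among 9 other pentose phosphate genes tested, 3 were higher (Prps1, Prps2 and Shpk) and 1 lower, the epimerase Rpe, which fell by 0.31. Prps2, which makes the nucleotide precursor phosphoribosyl pyrophosphate, rose by 0.48 (SE 0.08, adjusted p = 0.00215). Among 18 other TCA genes, Got1 and Pdp2 were higher and Acly and Sdhd lower. Of 14 regulators, 3 were higher and 5 lower: Myc rose by 1.78 (SE 0.14), from 11.3, 16.0 and 14.9 FPKM in RFP- to 57.0, 51.6 and 42.8 FPKM in RFP+ libraries, and Hif1a rose by 0.39, while Txnip, which restrains glucose uptake, fell by 0.95 and Rptor, the mTORC1 scaffold gene, by 0.61.

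Other cell markers moved with the sort. Of 9 IEL and T cell genes, 6 were lower in RFP+ and 1, the sorted Cd160, higher, and the 9 summed to 2443 to 2645 FPKM against 3840 to 3896 FPKM. The 9 genes listed for CD4 and CD8αβ T cells summed to 8.19 to 8.70 FPKM in RFP+ against 2.66 to 3.17 FPKM in RFP-; Cd40lg, at 3.26, 5.94 and 4.02 against 0.775, 0.912 and 1.66 FPKM, was called higher, and 7 of the 9 were too low to be tested.

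Of 15 cell cycle genes tested, 10 were lower in RFP+ and none higher; all 17 summed to 118 to 128 FPKM in RFP+ libraries against 148 to 219 FPKM in RFP-, with Mki67 at 14.2, 6.46 and 7.52 FPKM in RFP-. All 4 myeloid-list genes tested were lower, among them Fcgr3 (8.46, 9.31 and 9.34 against 48.4, 41.0 and 38.5 FPKM). The 7 listed genes measured summed to 44.9 to 53.2 against 92.4 to 104 FPKM. Csf1r, Lyz2 and Xcr1 of that list were under 1 FPKM in every sorted library and were not tested. Epithelial markers (21 genes) summed to 116 to 132 FPKM in RFP+ libraries against 107 to 211 FPKM in RFP-. Their part in the members' differences was not tested.

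The 2 libraries titled LI were compared with the 6 sorted libraries as a description. Both lay above all 6 for 10 members (23.8%) and below all 6 for 6 members (14.3%), against 20.9% and 21.2% of all genes tested. Those above were Pfkl, Gapdh, Pgam1, Eno1, Eno3 and Pdk1 of glycolysis and Idh3g, Suclg2, Pdha1 and Dlat of the TCA cycle. Those below were Pfkp and Aldoa, the pentose phosphate genes G6pdx and Pgd, and Aco1 and Mdh1.

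Eno1, the ubiquitous enolase, was at 60.0 and 61.5 FPKM in the LI libraries and 40.6 to 47.3 FPKM in the sorted ones. For 12 of the 15 members called in the sort (80%), both LI values were nearer to the RFP+ mean, against 81.4% of all genes called there. For 5 of the 12, both LI values lay beyond all 6 sorted libraries on the RFP+ side. For the other 3, Pkm, Rpia and Fh1, the 2 LI libraries were split. Idh2, for example, was at 7.48 and 6.50 FPKM in LI libraries, within the RFP+ range. Both LI libraries held more reads than any sorted library. Their IEL and T cell genes summed to 1487 to 1565 FPKM, against 2443 to 3896 FPKM in the sorted libraries. CD4 and CD8αβ T cell genes summed to 19.3 to 21.45 FPKM, above all 6. Stroma, endothelium and erythroid genes summed to 37.4 to 37.6 FPKM, against 6.93 to 16.4 FPKM. Epithelial and cell cycle sums lay within the RFP- range. Of the 21 epithelial markers, however, 5 to 6 were at 0 in the LI libraries and none in any sorted library. The part of these in the LI values was not tested.

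In total IELs of the Bcl6 knockout, no member passed the test. Of 41 members tested, 0 were called by limma, against 0.418% of all 9573 genes tested (3 higher and 37 lower), and 1 member had an unadjusted p under 0.05, against 5.84% of all genes. Groups did not overlap for 12 members (29.3%), against 33% of all genes. The median log2 fold change was -0.15 for 19 glycolysis genes, -0.17 for 5 pentose phosphate genes and 0.04 for 17 TCA genes, beside 0.03 for all genes. The median standard error of a member was 0.18, against 0.07 in the sort.

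That 1 member was Hk2, at 0.914 and 1.08 FPKM in the knockout and 2.20 and 1.92 FPKM in littermates. Its groups did not overlap (log2 fold change -0.61, SE 0.19), and its adjusted p was 0.539. Aldoc, the next of glycolysis, had a log2 fold change of -0.40 (adjusted p = 0.899). Pfkfb3 was at 1.80 and 1.04 FPKM against 2.11 and 2.25 FPKM (adjusted p = 0.924).

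Several members were low in replicate 2 of the knockout alone. Ldha was at 231 and 158 FPKM in the knockout and 213 and 243 FPKM in littermates, and Pkm at 126 and 98.9 FPKM against 107 and 128 FPKM. In the pentose phosphate pathway, G6pdx was at 24.8 and 16.2 FPKM against 20.5 and 22.2 FPKM, Pgd at 30.2 and 19.0 FPKM against 26.2 and 29.9 FPKM, and Pgls at 18.3 and 11.5 FPKM against 16.8 and 18.9 FPKM. Pgls and Pgd had the smallest p of that pathway, at adjusted p of 0.949 and 0.949. Knockout replicate 1 lay inside or above the littermate range for G6pdx and Pgd, and replicate 2 below it.

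Knockout replicate 2 was also high in myeloid markers: S100a8 was at 4.86 and 36.6 FPKM in the knockout against 2.32 and 5.99 FPKM, S100a9 at 5.18 and 32.7 against 3.58 and 5.71 FPKM, and Lyz2 at 6.71 and 22.7 against 4.59 and 6.08 FPKM. The 11 myeloid genes in the table summed to 303 and 365 FPKM in the knockout and 226 and 244 FPKM in littermates, and none of the 6 tested was called. Their part in the low members was not tested.

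Without knockout replicate 1, 9 members of 41 (22%) were called, 1 higher and 8 lower, against 16.4% of all genes; without replicate 2, none were, against 2.07% of all genes. In those fits the lone knockout library is assumed to vary as the littermates do. Rpia was at 0.215 to 0.485 FPKM in this experiment and was not tested. In the TCA cycle, Dlst (adjusted p = 0.949) and Pdhb (adjusted p = 0.949) had the smallest p, with log2 fold changes of -0.22 and 0.21. Cs was at 38.1 and 29.8 FPKM against 34.5 and 37.0 FPKM, and Idh2 at 26.1 and 22.4 FPKM against 22.3 and 23.1 FPKM, both overlapping.

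**Figure D3:**
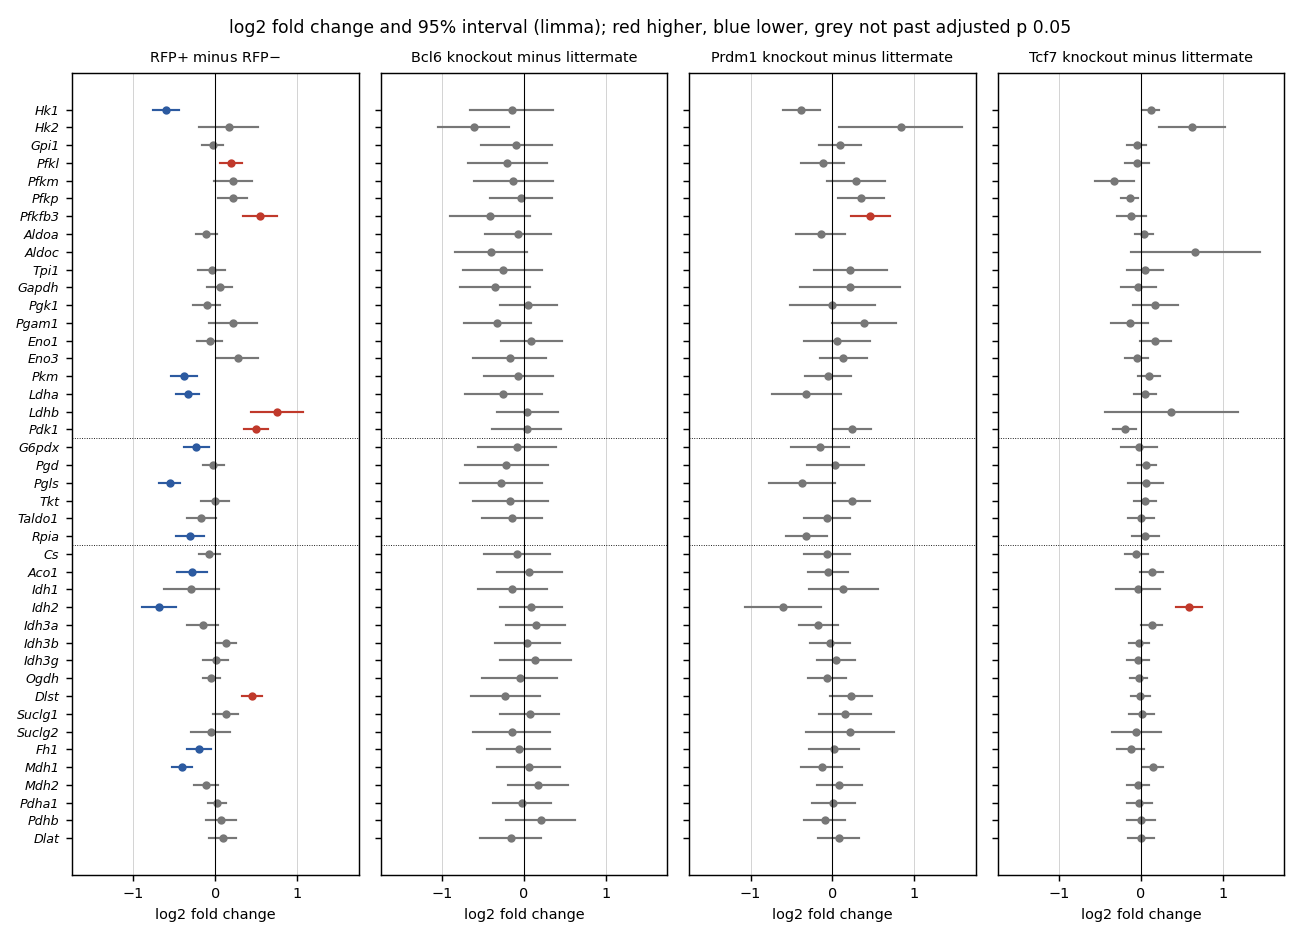
log2 fold change of each member (dots) with its 95% interval (lines) in the 4 comparisons, from limma; red dots were higher, blue lower and grey not past an adjusted p of 0.05, dotted lines part the 3 pathways, and a missing dot is a member not tested. The sort has 15 coloured members, the Bcl6 knockout 0, and the Prdm1 and Tcf7 knockouts 1 each (Pfkfb3 and Idh2).

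In total IELs of the Prdm1 knockout, Pfkfb3 was the 1 member called among 40 tested (2.5%), against 6.84% of all 10969 genes (4.29% higher). It was at 1754 and 1715 scaled reads in the knockout and 1253 and 1264 in littermates, and rose by 0.46 (SE 0.10, adjusted p = 0.0422). Leaving out any 1 of the 4 libraries ended the call, with adjusted p from 0.0507 to 0.176; edgeR on the recovered reads gave 0.50 and 0.0376. Groups did not overlap for 17 members (42.5%), against 52.4% of all genes. Aldoc and Ldhb were too low to be tested.

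The other glycolysis members ranged from -0.38 (Hk1) to 0.84 (Hk2). Hk1, named here after its values were seen, was at 6046 and 5711 scaled reads against 7581 and 7737, without overlap, at an adjusted p of 0.0646. Hk2 was at 753 and 433 against 400 and 255, with a SE of 0.31 and an adjusted p of 0.196. Pkm and Ldha were at 3309 and 3870 against 3498 and 3953, and at 3005 and 3527 against 3406 and 4848, both overlapping.

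In the pentose phosphate pathway, none of 6 members was called. Rpia was at 970 and 978 scaled reads against 1220 and 1209 (log2 fold change -0.32, adjusted p = 0.149), and Tkt at 7277 and 7648 against 6180 and 6515 (0.23, adjusted p = 0.231). G6pdx was at 594 and 568 against 586 and 714, which overlapped. In the TCA cycle none of 17 was called. Idh2 was at 555 and 729 against 839 and 1122, without overlap (log2 fold change -0.61, SE 0.20, adjusted p = 0.136), Dlst at 5773 and 6009 against 4668 and 5445, and Cs at 2748 and 3164 against 2879 and 3315.

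Outside the members, glycolysis genes called higher in the Prdm1 knockout included Hkdc1, Pklr and Pdk4. Hkdc1, a hexokinase-like gene, was at 215 and 323 against 52.8 and 41.4 scaled reads and rose by 2.47 (SE 0.31, adjusted p = 0.00784). Pklr, the liver pyruvate kinase gene, rose by 1.71, and Pdk4, a kinase of pyruvate dehydrogenase known from starvation, by 2.25. Markers of gut epithelium moved the same way: 13 of 21 were higher and none lower, and the 21 summed to 21940 to 23920 scaled reads in the knockout and 15860 to 17160 in littermates.

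Among those markers, Krt8 was at 929 and 1094 against 250 and 199, and Sis at 606 and 953 against 202 and 164, while Epcam was at 2763 and 2812 against 2744 and 2778. None of the 21 was at 0 in any library. The part of epithelial RNA in these 3 genes, and in Pfkfb3 and Hk2, was not tested. Slc2a3 fell by 0.46 (adjusted p = 0.0443) and the regulator Egln1 by 0.47 (adjusted p = 0.0333), and Myc rose by 0.79, from 2850 and 3669 to 5690 and 5472 scaled reads (adjusted p = 0.0202).

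**Figure D4:**
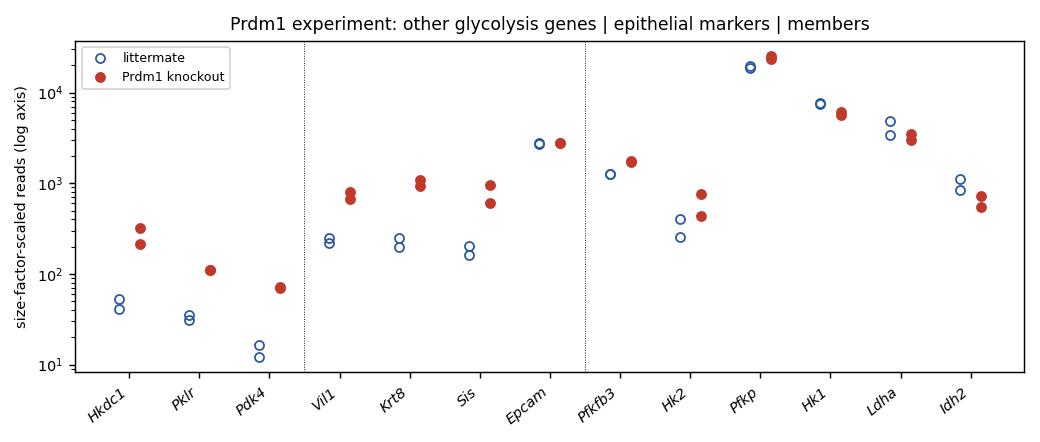
Size-factor-scaled reads (log axis) in each library of the Prdm1 experiment for 3 glycolysis genes outside the members, 4 epithelial markers and 6 members; open circles are littermates and filled circles knockouts, 2 libraries each. The first 6 genes lie higher in both knockout libraries, Epcam lies at about the same level in all 4, and of the members Pfkfb3, Hk2 and Pfkp lie higher and Hk1 and Idh2 lower in both.

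In total IELs of the Tcf7 knockout, Idh2 was the 1 member called among 42 tested (2.4%), against 2.72% of all 15210 genes (1.49% higher). Idh2 was at 2137 and 2118 scaled reads in the knockout and 1426 and 1409 in littermates. It rose by 0.59 (SE 0.07, adjusted p = 0.000380) and was called under every alternative run for it, including each library left out. Its adjusted p over these ranged up to 0.00388. Groups did not overlap for 19 members (45.2%), against 41.6% of all genes.

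None of 19 glycolysis genes was called. Hk2 was at 358 and 337 scaled reads against 194 and 262, without overlap (log2 fold change 0.62, SE 0.19, adjusted p = 0.121). Pdk1 was at 2637 and 2580 against 2949 and 3054 (-0.20, SE 0.06, adjusted p = 0.148). Pfkfb3, Pkm and Ldha differed by -0.12, 0.10 and 0.05.

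None of 6 pentose phosphate genes was called, with log2 fold changes from -0.03 (G6pdx) to 0.06 (Pgd, adjusted p = 0.711), and Tkt differed by 0.05 (adjusted p = 0.837). The 16 TCA genes other than Idh2 ranged from -0.13 (Fh1) to 0.14 (Mdh1). Of the wider lists, Got1, the cytosolic aspartate aminotransferase that works with Mdh1 in the malate-aspartate shuttle, fell by 0.47, from 2709 and 2635 to 1946 and 1922 scaled reads (adjusted p = 0.00119), and Txnip rose by 0.21 (adjusted p = 0.0422). Of 21 epithelial markers, 2 were called higher and 2 lower here, 17 had a positive log2 fold change, and the median was 0.21. The 21 summed to 32980 to 33260 scaled reads in the knockout and 29710 to 29810 in littermates. Of the 6 myeloid-list genes tested, Itgam, Fcgr3 and Xcr1 were called higher. Other genes of that list were too low to be tested. Csf1r was at 2.985 and 9.466 against 11.42 and 6.625 scaled reads. Adgre1 was at 7.961 and 1.893 against 11.42 and 0, and Cd14 at 5.971 and 9.466 against 9.517 and 4.417. Of 8 CD4 and CD8αβ T cell genes tested, Cd5 (280 and 326 against 121 and 80.6 scaled reads) and Cd6 (608 and 592 against 328 and 295) were higher, and the 9 listed summed to 1484 to 1545 against 839 to 1061 scaled reads. The erythroid genes Hba-a1 (296 and 338 against 181 and 152) and Hbb-bs (278 and 250 against 142 and 114) were also higher. The part of these in the Idh2 value was not tested.

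Side by side, no member was called in all comparisons, and 2 were called in 2. That count was not made over all genes, so it does not set the members apart. The call on Pfkfb3 in the Prdm1 experiment was near the threshold (limma adjusted p = 0.0422). Idh2 had a log2 fold change of -0.69 in the sort, 0.09 in the Bcl6, -0.61 in the Prdm1 and 0.59 in the Tcf7 experiment. Pfkfb3 had 0.54, -0.41, 0.46 and -0.12 in the same order. Hk1 had -0.60, -0.15, -0.38 and 0.12. These comparisons share no libraries, but a difference between them was not tested.

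**Figure D5:**
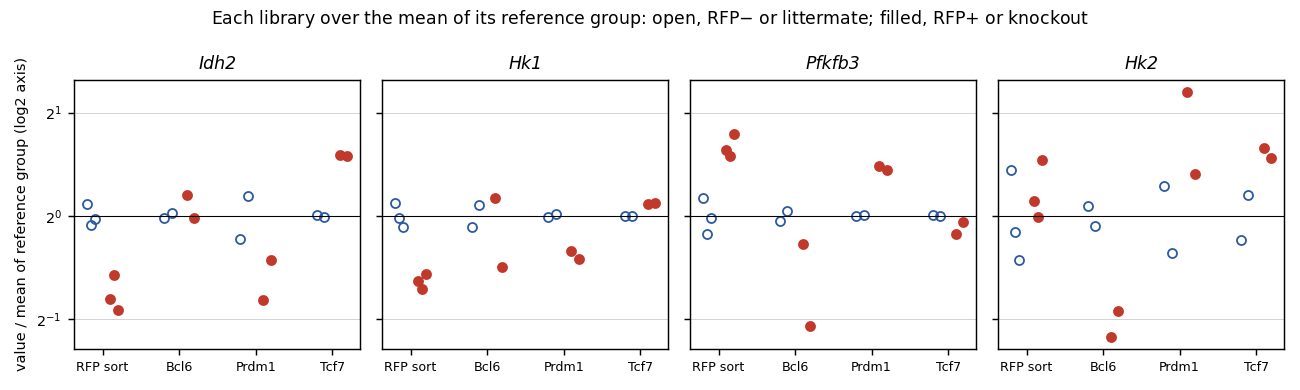
Idh2, Hk1, Pfkfb3 and Hk2 in each library, as the value over the mean of its reference group (y axis, log2 scale); open blue circles are RFP- or littermate libraries and filled red circles RFP+ or knockout libraries, 3 per group in the sort and 2 in the knockouts. Idh2 lies below its reference in the sort and the Prdm1 experiment and above it in the Tcf7 experiment.

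Levels between genes, compared per length, kept some order across tables and changed in others. Mdh1 was the highest TCA member in all 4 tables. Ldha, Aldoa and Pkm led glycolysis in both FPKM tables, and Aldoa led it in the scaled-read tables. Eno3, the muscle enolase, ranked 12 and 15 of 19 in the FPKM tables of the sort and the Bcl6 experiment but 3 and 2 in the Prdm1 and Tcf7 tables, and Eno1 ranked 5 and 4 against 13 and 12.

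Eno3 made up 12.8% to 21.4% of the Eno1 and Eno3 sum in the sorted libraries and 82.2% to 84.4% of their per-length sum in the Prdm1 libraries. Of the 50-base words in Eno1 transcripts, 26.0% also occur in transcripts of 23 other genes, and none of those in Eno3 do. Such sharing reached 53.9% for Pgk1, 36.2% for Pgam1, 25.8% for Pkm and 25.1% for Gapdh, so the levels of these genes are uncertain in each table. Which tool made which table is not given in the sources used here. Rpia was at 6.71 to 9.44 FPKM in the sorted libraries and under 0.5 FPKM in the Bcl6 experiment, and the 2 levels come from tables normalized separately.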

How the data were processed

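Bulk RNA of sorted cells was sequenced in 20 libraries by BGI Genomics or Novogene; the labels do not say which made which. Per the submitters' processing notes, the authors used Trim Galore 0.4.4, Bowtie2, RSEM, featureCounts (Subread) and DESeq2 on mm10. The authors deposited FPKM for the reporter mice and the Bcl6 experiment. They deposited a size-factor-scaled signal (gene counts divided by a size factor) for the Prdm1 and Tcf7 experiments; the scale was read from the values, which were whole reads for 100% of those checked (tolerance 0.01 of a read).

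Each experiment was fitted alone over all its genes with limma 3.58.1 (R 4.3.3, trend) on log2(value + 1), keeping genes that reached 1 FPKM or 50 scaled reads in at least the smaller group's number of libraries. The Benjamini-Hochberg adjusted p had to be 0.05 or less for a call, and the fit was tested on simulated data. Every called member was named, with values for each; where a pathway had none, the 2 with the smallest p, and always Hk2, Pfkfb3, Ldha, Pkm, G6pdx, Cs and Idh2. Of other lists at most 4 called genes were named, and 1 gene among them is not reported here. The members and lists were chosen with earlier results of these data known. Sharing between genes was counted over 50-base words of GENCODE M21 transcripts. Alternatives changed the pseudocount, filter, scaling, replicate block and libraries, and edgeR 4.0.16 was run on recovered reads of the Prdm1 experiment. Depth limits low genes such as Aldoc. The 2 libraries titled LI entered no test.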

Additional observations from a re-analysis of the deposited data

Results flagged for a closer look

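The 2 libraries titled LI entered no test, and they carried values outside the range of the 6 sorted libraries. Both lay above all 6 for 10 members and below all 6 for 6 members, beside 20.9% and 21.2% of all genes tested. With no group of their own, these are values of 2 libraries, and their source was not tested.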

How the results depend on the processing

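The count of called members in the sort was 14 to 20 under the alternatives that kept all libraries. That was 33.3% to 48.8% of members, against 30.8% to 46% of all genes. With 1 library left out, 11 to 14 members were called (26.8% to 34.1%), against 27.6% to 34.6% of all genes. In the knockout experiments, leaving out 1 library leaves 1 library in a group, so calls are not counted here. Deviations of same-numbered libraries correlated at -0.231, 0 and -0.331 in the sort, -0.459 in the Bcl6, 0.528 in the Prdm1 and 0.064 in the Tcf7 experiment. In the sort, RFP+ replicates 1, 2 and 3 correlated at 0.362, 0.426 and 0.485 with RFP- replicates 2, 3 and 1. The labels name no pairs, so libraries were not paired in the main test, the Prdm1 experiment included. With the replicate block, 14 members (34.1%) were called in the sort, 0 in the Bcl6, 9 (22.5%; 4 higher, 5 lower) in the Prdm1 and 5 (11.9%; 3 higher, 2 lower) in the Tcf7 experiment, against 30.8%, 0.815%, 21.8% and 6.42% of all genes. In the Prdm1 experiment these included Hk2 (adjusted p = 0.00101) and Ldha (adjusted p = 0.0166). A crossed block in the Bcl6 experiment called 1 member, and rescaling to the same sum called 2 in the Prdm1 experiment; both were chosen after seeing the data.

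Signs turned only for values that were not called. In the sort, the log2 fold change of Cs was 0.00831 by quantile normalization and 0.0819 with totals rescaled to the same sum. In the Prdm1 experiment, Pkm was 0.00296 rescaled without the granzymes, 0.0258 by quantile normalization, 0.0178 centred on well expressed genes and 0.021 with totals rescaled, and Cs was 0.00307, 0.00601 and 0.00921 under the last 3. With 1 library left out, the log2 fold changes ranged as follows: in the Prdm1 experiment Pkm -0.168 to 0.0576 and Cs -0.169 to 0.0345, in the Bcl6 experiment Pkm -0.242 to 0.109, Ldha -0.522 to 0.0201, G6pdx -0.377 to 0.208, Pgd -0.539 to 0.105, Pgls -0.591 to 0.0331, Cs -0.255 to 0.0900 and Idh2 -0.0211 to 0.192, and in the Tcf7 experiment Ldha -0.0143 to 0.117, G6pdx -0.0611 to 0.00822, Tkt -0.0456 to 0.139 and Cs -0.142 to 0.0239. Of the Bcl6 results, those other than Idh2 turned without knockout replicate 2, Pkm also without littermate replicate 2, and Idh2 without knockout replicate 1. The cause was not tested. edgeR was not run in the Tcf7 experiment. Depth limits the precision of genes near or under 1 FPKM, such as Hk2 and Aldoc in the sort.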
